A study of Homo sapiens with 5 samples.

Results

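The genes described here are those with a low level in clone 3 of the EZH2 inhibitor-resistant (EIR) TOV21G cells while clone 4 held them near the level of the parental cells. TOV21G is a cell line of ovarian clear cell carcinoma that carries mutated ARID1A, a subunit of the SWI/SNF chromatin remodelling complex, and GSK126 inhibits EZH2, the histone methyltransferase of the PRC2 repressor complex. Resistant clones were picked after the cells had been exposed to GSK126 raised stepwise from 5 to 20 uM. RNA-seq of total RNA covered 5 libraries of the same ARID1A-mutated background, which were the parental line (1 library), clone 3 without and with GSK126, and clone 4 without and with GSK126. Each clone is the progeny of a picked colony, so the 2 libraries of a clone share an origin and differ in treatment, and the dose and duration of that treatment are not given in the sources used here. There was 1 parental library, so no ratio to parental cells has a replicate check.

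Members were chosen from the measured levels. A level is given in CPM, the estimated read count of a gene per 1000000 counts of its library. A gene was a member when it was protein-coding, had at least 1 CPM in parental cells, lay between 0.5 and 2 times the parental level in both clone 4 libraries and was at most 0.2 times the parental level in both clone 3 libraries. Symbols that start with HOX, KRT, COL, PCDH, ZNF, ABC or SLFN were left out. Of 30476 identifiers in the table, 16826 were protein-coding genes, 11715 of these reached 1 CPM in parental cells, and 11198 remained without those prefixes. The rule found 6 of the 11198 genes, PDE3A, BDKRB2, SLIT3, C15orf62, INPP5D and FILIP1L. Because the levels of all 5 libraries chose them, their differences between clone 3, clone 4 and parental cells are a description and carry no test.

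The 6 genes act in different parts of the cell. PDE3A encodes a cyclic nucleotide phosphodiesterase that degrades cAMP and is inhibited by cGMP. BDKRB2 encodes the B2 receptor of bradykinin, a G protein-coupled receptor that answers kinin peptides. SLIT3 encodes a secreted ligand of the ROBO guidance receptors, which steer migrating cells and growing axons. INPP5D encodes SHIP1, a phosphatase that removes the 5-phosphate from the lipid product of PI3K and is best known in blood cells. FILIP1L encodes a filamin-interacting protein that restrains cell migration and was first described as a gene with low expression in ovarian cancer. C15orf62 is a short open reading frame on chromosome 15 whose function is little known.

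Most genes with a low level in clone 3 were low in clone 4 as well. Both clone 3 libraries were at most 0.2 times parental for 250 genes, which is 2.23% of the 11198, and both clone 4 libraries were for 423 genes (3.78%). Of the 250 genes, 243 had a clone 4 library under 0.5 times parental (232 had both), 175 were at most 0.2 times parental in all 4 resistant libraries, 1 gene (CNRIP1) had a clone 4 library over 2 times parental, and the remaining 6 are the members. In bulk RNA, fewer cells that express a gene and less RNA per cell cannot be told apart. The mirrored rule, with the clones exchanged, found 76 genes.

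**Figure D1:**
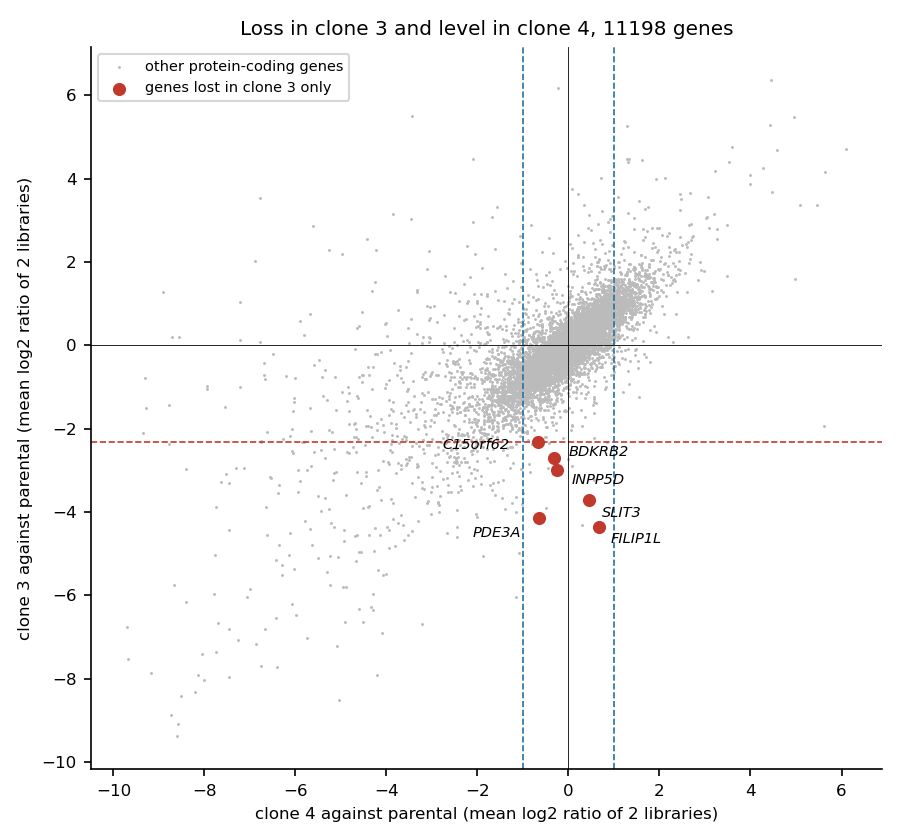
Mean log2 ratio to parental cells in clone 4 (horizontal axis) against clone 3 (vertical axis) over the 2 libraries of each clone, for 11198 protein-coding genes, on CPM with 0.5 counts added. The dashed lines mark 0.2 times parental in clone 3 and 0.5 and 2 times parental in clone 4, and the 6 members (red) lie below the first and between the other two. Grey points in the same field had a library beyond a limit although their mean was not.

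PDE3A (ENSG00000172572, chr12:20521471-20841517, plus strand, GRCh37) had the highest CPM of the members. Its level was 130.5 CPM in parental cells, 7.25 and 7.54 CPM in untreated and treated clone 3, and 79.1 and 88.3 CPM in untreated and treated clone 4. These levels rest on 3893 counts in parental cells, 223 and 221 in clone 3 and 2331 and 2251 in clone 4. Both clone 3 libraries were low and nearly equal, at 5.56% and 5.78% of the parental level, and clone 4 stood at 60.6% and 67.7%. On average, parental cells had 17.6 times the clone 3 level (7.40 ± 0.21 CPM, SD, n = 2), and clone 4 (83.7 ± 6.6 CPM, n = 2) had 11.3 times.

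BDKRB2 (ENSG00000168398, chr14:96671016-96710503, plus strand) had 20.3 CPM in parental cells, 3.64 and 2.66 CPM in untreated and treated clone 3, and 12.3 and 21.4 CPM in untreated and treated clone 4. The counts were 607 in parental cells, 112 and 78 in clone 3 and 363 and 546 in clone 4. The clones did not overlap, and the treated clone 4 library was at 105% of parental while the untreated clone 4 library was at 60.5%. Its fold between parental cells and the clone 3 mean was 6.46.

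SLIT3 (ENSG00000184347, chr5:168088745-168728143, minus strand) had 4.26 CPM in parental cells, 0.195 and 0.478 CPM in untreated and treated clone 3, and 4.17 and 8.24 CPM in untreated and treated clone 4. In counts these were 127 in parental cells, 6 and 14 in clone 3 and 123 and 210 in clone 4. Untreated clone 4 matched the parental level at 98% and treated clone 4 was near the upper limit of the rule at 194%. The parental level was 12.7 times the clone 3 mean.

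The other 3 members were close to the minimum of 1 CPM in parental cells, so few reads stand behind them. C15orf62 (ENSG00000188277, chr15:41062178-41064647, plus strand) had 37 counts in parental cells, 7 and 7 in clone 3 and 25 and 18 in clone 4, which is 1.24 CPM against 0.228 and 0.239 and against 0.848 and 0.707 CPM. INPP5D (ENSG00000168918, chr2:233924677-234116549, plus strand) had 34 counts in parental cells, 5 and 3 in clone 3 and 26 and 26 in clone 4, or 1.14 CPM against 0.163 and 0.102 and against 0.882 and 1.02 CPM. FILIP1L (ENSG00000168386, chr3:99547655-99833357, minus strand) had 33 counts in parental cells, 5 and 0 in clone 3 and 54 and 43 in clone 4, or 1.11 CPM against 0.163 and 0 and against 1.83 and 1.69 CPM. The 0 counts in treated clone 3 allow a level of up to 0.102 CPM (3 counts), and both clone 4 libraries stood above the parental value, at 166% and 153%, with overlapping counting intervals. Exact 95% Poisson intervals, which cover counting error only, ran from 2.81 to 14.4 for the 7 counts of C15orf62 in a clone 3 library and from 26.1 to 51 for its 37 parental counts, so its place under 0.2 times parental was within counting error. The intervals of INPP5D in both clone 3 libraries and of BDKRB2 (92.2 to 135 counts) and FILIP1L (1.62 to 11.7 counts) in untreated clone 3 also reached beyond that limit. The upper clone 4 limit was within counting error for SLIT3 in treated clone 4 (183 to 240 counts) and for FILIP1L in both clone 4 libraries. The lower clone 4 limit was within counting error for C15orf62 in both clone 4 libraries (16.2 to 36.9 and 10.7 to 28.4 counts).

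**Figure D2:**
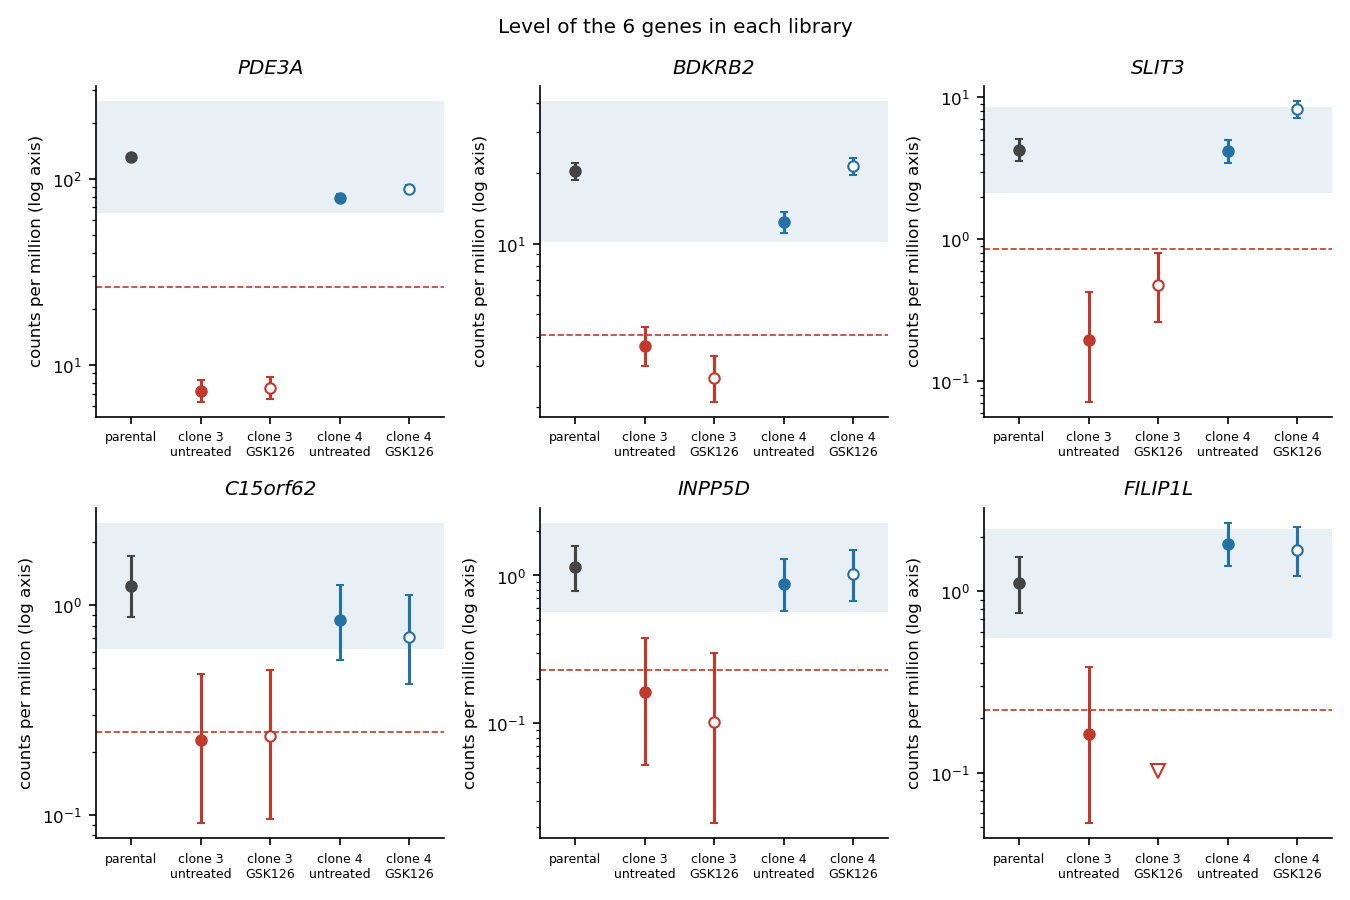
CPM of the 6 members in each of the 5 libraries on log axes, with exact 95% Poisson intervals of the counts, filled points for untreated and open points for GSK126-treated cells. The blue band spans 0.5 to 2 times parental, the red dashed line marks 0.2 times parental, and the open triangle of FILIP1L in treated clone 3 stands at the 0.102 CPM that a count of 0 allows. The clone 3 intervals of PDE3A and SLIT3 lie below the line, whereas those of C15orf62 and INPP5D in both clone 3 libraries, and of BDKRB2 and FILIP1L in untreated clone 3, reach across it.

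At the limits of the rule, the members nearest to the 0.2 limit were C15orf62 (0.193 times parental in its higher clone 3 library), BDKRB2 (0.179) and FILIP1L (0.147). Just outside it were SCARA5 (0.202), a scavenger receptor, and ALDH1L1 (0.216), an enzyme of folate metabolism. Near the lower clone 4 limit, C15orf62 (0.57), BDKRB2 (0.605) and PDE3A (0.606) were inside, and CPS1 (0.462) and HSD17B2 (0.46) were outside. Near the upper clone 4 limit, SLIT3 (1.94), FILIP1L (1.66) and BDKRB2 (1.05) were inside, and CNRIP1 (2.26) was outside. The lowest parental levels inside were those of FILIP1L, INPP5D and C15orf62 given above, and the nearest genes left out by the minimum were GOLGA8J (0.201 CPM), BLID (0.134 CPM) and GALNT8 (0.101 CPM).

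Between the clones, a fit across all genes with treatment as covariate (DESeq2, Benjamini-Hochberg adjusted p under 0.05) called 585 of 17695 genes lower in clone 3, which is 3.31%, and 1154 (6.52%) higher. Of the 6 members, 4 were among the genes called lower, and C15orf62 and INPP5D were not, but the rule used this contrast and nothing is read from that count. Both clone 3 libraries lay below both clone 4 libraries for 26% of the 11198 genes, and for 6 of 6 members, as the rule requires.

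Library composition was checked beside these values. The total count per library ranged from 25479238 to 30764963. The ratio of resistant to parental cells depended on the GC content of genes in every resistant library. With genes in 10 bins of GC content, median log2 ratios ran from 0.51 to 0.61 over the 4 resistant libraries in the lowest bin and from -0.73 to -0.46 in the highest. When ratios were centred within these bins, PDE3A (40% GC) stayed at 0.046 times parental in both clone 3 libraries, and its untreated clone 4 ratio of 0.606 became 0.494, just under the lower limit. Under that centring BDKRB2 and C15orf62 went above the clone 3 limit (higher library 0.204 and 0.238), and SLIT3 went above the upper clone 4 limit (2.3). INPP5D and FILIP1L remained members, and the part of GC content in the levels of the 6 genes was not tested further.

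Promoters of the members are shown because their CpG content at canonical start sites, which the rule did not use, was lower as a group than that of expressed genes. Each window holds 300 bases, from 250 before to 50 after the start of the GENCODE canonical transcript, read from the GRCh37 genome in the direction of transcription. Capitals mark every CpG dinucleotide (motif CG, which is the same on both strands). Shown are 4 of the members, at chr14:96670926-96671225 on the plus strand (BDKRB2), chr5:168728094-168728393 on the minus strand (SLIT3), chr15:41061928-41062227 on the plus strand (C15orf62) and chr2:233924802-233925101 on the plus strand (INPP5D).
BDKRB2: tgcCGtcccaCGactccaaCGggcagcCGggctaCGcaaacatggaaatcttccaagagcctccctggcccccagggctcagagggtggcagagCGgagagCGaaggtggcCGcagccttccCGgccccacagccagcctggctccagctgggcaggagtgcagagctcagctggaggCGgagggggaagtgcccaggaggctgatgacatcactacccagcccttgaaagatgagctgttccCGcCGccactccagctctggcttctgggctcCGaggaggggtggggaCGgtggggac
SLIT3: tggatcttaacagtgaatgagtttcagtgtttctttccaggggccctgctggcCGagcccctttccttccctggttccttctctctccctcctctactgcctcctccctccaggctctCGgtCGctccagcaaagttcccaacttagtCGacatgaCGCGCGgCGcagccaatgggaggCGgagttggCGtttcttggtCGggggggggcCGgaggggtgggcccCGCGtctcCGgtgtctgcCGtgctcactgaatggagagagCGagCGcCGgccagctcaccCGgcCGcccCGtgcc
C15orf62: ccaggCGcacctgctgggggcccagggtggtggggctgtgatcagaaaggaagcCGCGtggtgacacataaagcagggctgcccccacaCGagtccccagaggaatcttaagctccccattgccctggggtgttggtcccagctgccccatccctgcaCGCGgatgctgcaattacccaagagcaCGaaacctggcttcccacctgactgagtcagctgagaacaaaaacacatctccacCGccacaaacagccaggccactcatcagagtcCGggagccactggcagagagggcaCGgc
INPP5D: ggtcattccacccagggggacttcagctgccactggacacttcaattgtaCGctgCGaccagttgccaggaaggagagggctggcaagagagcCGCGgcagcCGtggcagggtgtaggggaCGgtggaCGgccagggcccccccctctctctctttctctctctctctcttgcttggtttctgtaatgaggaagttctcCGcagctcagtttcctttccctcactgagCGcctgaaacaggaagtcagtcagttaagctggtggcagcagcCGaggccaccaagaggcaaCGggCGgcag

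The SLIT3 window held 22 CpG dinucleotides, that of BDKRB2 14, that of INPP5D 12, that of PDE3A 11, that of C15orf62 10 and that of FILIP1L (chr3:99833296-99833595, minus strand) 2. At least 1 CpG stood in 98.1% of 19894 protein-coding promoters of the same length. The ratio of observed to expected CpG, which corrects for base composition, was 0.70 for SLIT3 and 0.68 for PDE3A, and 0.44, 0.42, 0.35 and 0.11 for INPP5D, BDKRB2, C15orf62 and FILIP1L. With a limit of 0.6, 2 of 6 members (33.3%) were CpG-rich, beside 89% of 11660 expressed genes with a window and 67.6% of all 19894 promoters. Among the genes at most 0.2 times parental in clone 3 at any clone 4 level, 79.5% of 249 were CpG-rich, and 77.6% of the 76 genes of the mirrored rule were. At a limit of 0.75 no member (0 of 6) was CpG-rich, beside 73.8% of expressed genes. With 6 genes these shares are a description. They were not matched for expression level, and the members had a median parental level of 2.75 CPM beside 32.4 CPM over the 11198 genes. Start sites differ between annotations. In a RefSeq promoter table (GRCh38) the window of PDE3A held 0 CpG dinucleotides and that of FILIP1L held 48, with a ratio of 1.14, so that 2 of 6 members were CpG-rich there too (SLIT3 and FILIP1L), beside 49% of the 27305 windows of that table.

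The loci of the members were spread over 6 chromosomes (2, 3, 5, 12, 14 and 15), and none lay beside another. The genes span from 2.5 kb (C15orf62) to 639.4 kb (SLIT3), with a median of 238.8 kb against 35.4 kb over the 11198 genes. The expressed genes on either side did not as a group share the low level. The 12 nearest protein-coding genes of at least 1 CPM had a median log2 ratio of clone 3 to parental of 0.21, from -1.91 (C14orf132, beside BDKRB2) to 1.66 (COL8A1, beside FILIP1L), and the median over all 11709 such genes that were no member was -0.04. On the flanks of PDE3A, AEBP2 had 32.4 CPM in parental cells and 35.1 and 38.5 CPM in clone 3, and PYROXD1 had 10.4 CPM in parental cells and 26.5 and 31.8 CPM in clone 3. Beside SLIT3, PANK3 went from 160 CPM in parental cells to 232 and 269 CPM in clone 3, and beside INPP5D, ATG16L1, only 2.1 kb away, had 59.3 CPM in parental cells and 60 and 56.6 CPM in clone 3. Both neighbours of C15orf62 were lower than in parental cells in both clones. GCHFR, 2.3 kb away, had 8.61 CPM in parental cells, 4.06 and 2.73 CPM in clone 3 and 4.1 and 4.04 CPM in clone 4, and ZFYVE19 had 23.9 CPM in parental cells, 18.4 and 15.4 CPM in clone 3 and 11.9 and 15 CPM in clone 4. C14orf132 was low in both clones, at 0.52 and 0.853 CPM in clone 3 and 0.102 and 0.667 CPM in clone 4 against 2.55 CPM in parental cells.

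Within 1 Mb of either end of PDE3A, BDKRB2, SLIT3 and FILIP1L no other gene was at most 0.2 times parental in both clone 3 libraries (0 of 7, 8, 6 and 9 genes). Around C15orf62 there were 2 of 32, SPINT1 and GPR176, and around INPP5D 2 of 12, PRSS56 and ECEL1. These 4 genes were low in clone 4 as well, for example ECEL1 with 287 CPM in parental cells, 2.8 and 2.46 CPM in clone 3 and 0.305 and 0.353 CPM in clone 4. Median log2 ratios of whole chromosomes in clone 3 lay between -0.04 and 0.20 for the 6 chromosomes, beside -0.03 and -0.05 over all of them. No DNA copy number was measured.

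**Figure D3:**
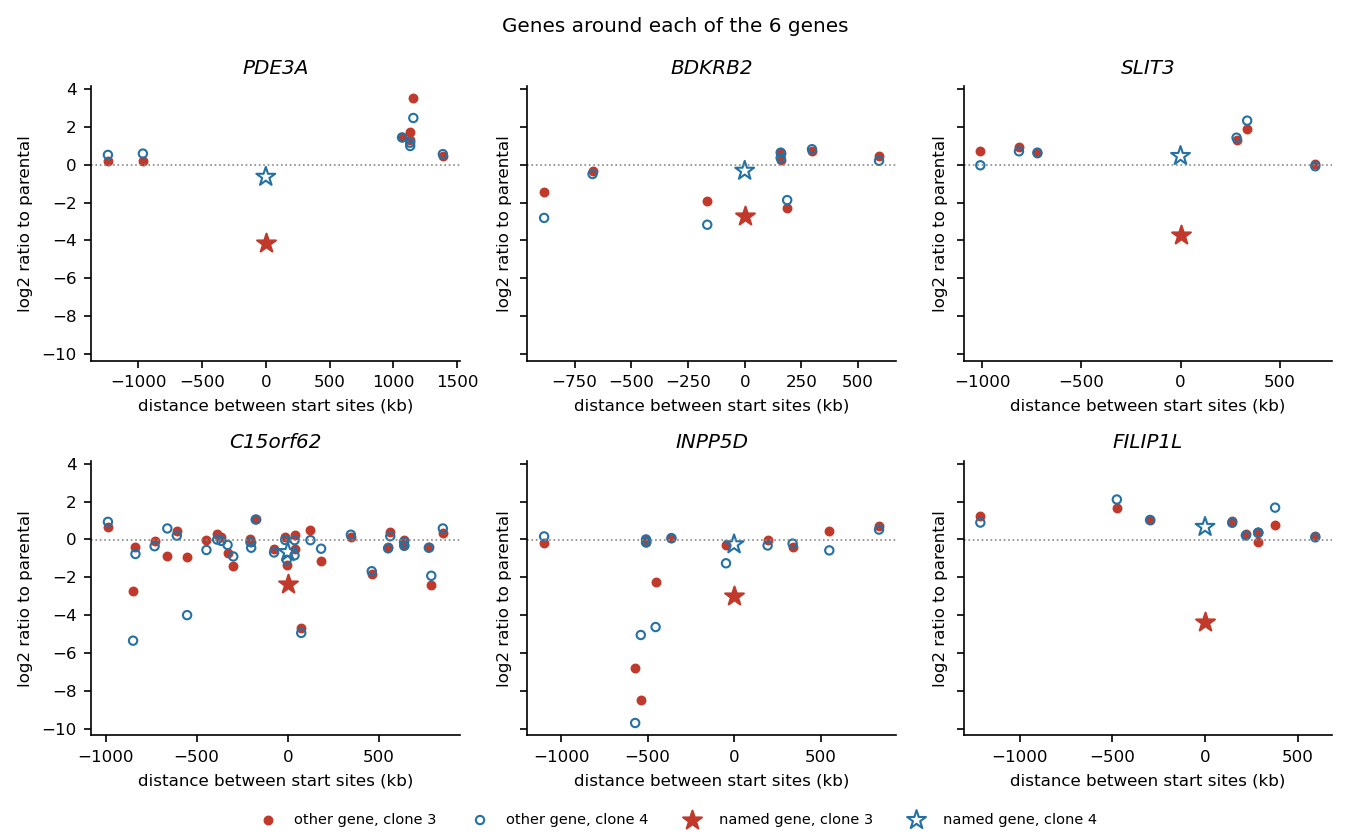
Mean log2 ratio to parental cells of the expressed protein-coding genes within 1 Mb of either end of each member, against the distance of their start sites from that of the member in kb, in clone 3 (filled red) and clone 4 (open blue). Stars mark the member and the dotted line the median of all genes in clone 3, -0.04. In the panels of PDE3A, SLIT3 and FILIP1L the clone 3 star stands alone below the line by more than 3 log2 units, and the 2 lowest genes of the INPP5D panel are low in both clones.

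Of the members, 2 lie wholly within a gene on the opposite strand. C15orf62 lies in DNAJC17, a gene of a DnaJ protein, and shares 310 of its 2470 exonic bases with it. DNAJC17 had 22.9 CPM in parental cells, 28.1 and 25.6 CPM in clone 3 and 24.2 and 20.6 CPM in clone 4, so it showed no such drop. FILIP1L lies in CMSS1, with 0 shared exonic bases, and CMSS1 had 41 CPM in parental cells, 79.9 and 87 CPM in clone 3 and 91 and 76.7 CPM in clone 4. The sources used here do not say that counting was strand-specific, so reads in the shared bases of C15orf62 could belong to either gene. BDKRB2 shares 479 exonic bases with ENSG00000258691 on the same strand. PDE3A shares 404 with PDE3A-AS1 and SLIT3 216 with SLIT3-AS2, both on the opposite strand. These overlapping genes had 0 to 2 counts per library. A lncRNA overlapping BDKRB2 (ENSG00000258412, 0 shared exonic bases) had 8 counts in parental cells, 0 and 1 in clone 3 and 8 and 6 in clone 4. A pseudogene inside PDE3A (ENSG00000256663) had 6.57 CPM in parental cells and 5.84 to 10.3 CPM in the resistant libraries and shares 0 exonic bases with it.

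The relatives of each member were taken as whole families listed after the members were known. The rule did not choose the relatives, but each family was listed because a member was low in clone 3. The fits below set 1 clone against another, with 2 libraries each that differ in treatment. Their p-values measure the spread between these libraries only and are no independent evidence on the members. Among the cyclic nucleotide phosphodiesterases, 6 of 18 tested genes besides PDE3A were lower in clone 3 than in clone 4, 1 was higher and 11 were not called (DESeq2, adjusted p under 0.05 over all genes), beside 3.31% and 6.52% of all genes. Here and below, these shares of all genes were not matched for expression level, and a family effect was not tested. The lower genes were PDE1A, PDE3B, PDE7A, PDE7B, PDE8A and PDE10A, and the higher gene was PDE6B, a rod photoreceptor subunit (log2 difference 3.46, SE 0.58, adjusted p 1.4e-07). Lower than clone 4 was not always lower than parental cells. PDE7A was at 0.893 and 0.962 times parental in clone 3 and at 1.64 and 1.86 times in clone 4. PDE10A was at 0.524 and 0.589 times parental in clone 3 and at 0.861 and 1.26 times in clone 4.

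PDE1A, a calmodulin-dependent enzyme, had 48.7 CPM in parental cells, 9.98 and 11.2 CPM in clone 3 and 32.6 and 35.9 CPM in clone 4. Its log2 difference between clone 3 and clone 4 was -1.67 (SE 0.24, adjusted p 1.6e-10), and it missed the clone 3 limit of the rule narrowly, at 0.205 and 0.229 times parental. PDE8A, a cAMP-specific enzyme, had 98.5 CPM in parental cells, 37.5 and 40.1 CPM in clone 3 and 81.7 and 98.9 CPM in clone 4 (log2 difference -1.19, SE 0.18, adjusted p 6.1e-09). PDE7B, also cAMP-specific, was low in both clones, with 30.8 CPM in parental cells, 4.71 and 5.12 CPM in clone 3 and 11.8 and 12.3 CPM in clone 4. The PDE7B and PDE10A calls were lost without the untreated clone 3 library (adjusted p 0.071 and 0.14), and over all alternatives their adjusted p ranged from 3.7e-05 to 0.071 and from 1.2e-05 to 0.14.

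PDE3B, the closest relative of PDE3A, went the opposite way from parental cells. It had 0.57 CPM in parental cells (17 counts), 26.6 and 36.5 CPM in clone 3 and 64.8 and 81.4 CPM in clone 4, so all 4 resistant libraries were far above the parental library and clone 3 was the lower clone (log2 difference -1.20, SE 0.20, adjusted p 7.3e-08). Clone 3 thus had lower values than clone 4 for both PDE3 genes, while parental cells had the highest value for PDE3A and the lowest for PDE3B. PDE4D (399 CPM in parental cells) and PDE4B (124 CPM), enzymes specific for cAMP, were not called between the clones, with adjusted p of 0.0714 and 0.9234. SLFN12, which some PDE3A-binding compounds recruit to PDE3A, had 1 count in parental cells, 32 and 41 in clone 3 and 53 and 38 in clone 4.

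The enzymes that make cAMP and the kinase that it activates differed in both directions. Of 14 tested adenylyl cyclases and protein kinase A subunits, 2 were higher in clone 3 than in clone 4 (ADCY1 and ADCY3), 2 were lower (ADCY5 and PRKACB) and 10 were not called. These calls compare the clones and not either clone with parental cells. ADCY3 was at 0.185 and 0.252 times parental in clone 3 and at 0.019 and 0.0744 times in clone 4. PRKACB was at 1.64 and 1.83 times parental in clone 3 and at 2.45 and 2.64 times in clone 4. ADCY1 had 4 counts in parental cells, 124 and 130 in clone 3 and 12 and 18 in clone 4. ADCY5 had 15.7 CPM in parental cells, 9.98 and 10.6 CPM in clone 3 and 28.7 and 52.4 CPM in clone 4 (log2 difference -1.90, SE 0.25, adjusted p 2.4e-12). The ADCY3 and PRKACB calls (adjusted p 0.0057 and 0.039) were each lost under 3 of 8 alternatives, with adjusted p up to 0.41 and 0.54. ADCY3 lost its call without either clone 3 library and without the untreated clone 4 library, and PRKACB without either clone 3 library and with edgeR.

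In the SLIT and ROBO pathway, 1 of 7 tested genes was higher in clone 3 than in clone 4 (ROBO2), 1 was lower (SLIT2) and 5 were not called. SLIT2, another secreted ligand, had 16.4 CPM in parental cells, 12.1 and 13.2 CPM in clone 3 and 34.2 and 64.8 CPM in clone 4. Its log2 difference was -1.88 (SE 0.24, adjusted p 3.2e-13), the same direction as the levels of SLIT3. ROBO2, a receptor of these ligands, had 0.067 CPM in parental cells (2 counts), 26.6 and 24.1 CPM in clone 3 and 0.339 and 0.667 CPM in clone 4. Its log2 difference was 5.71 (SE 0.41, adjusted p 8.7e-42), with both clone 3 libraries far above the other 3. ROBO1, another receptor of SLIT ligands, had 58.1 CPM in parental cells and 134 to 169 CPM in the 4 resistant libraries and was not called between the clones (log2 difference -0.08, SE 0.17, adjusted p 0.9235).

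**Figure D4:**
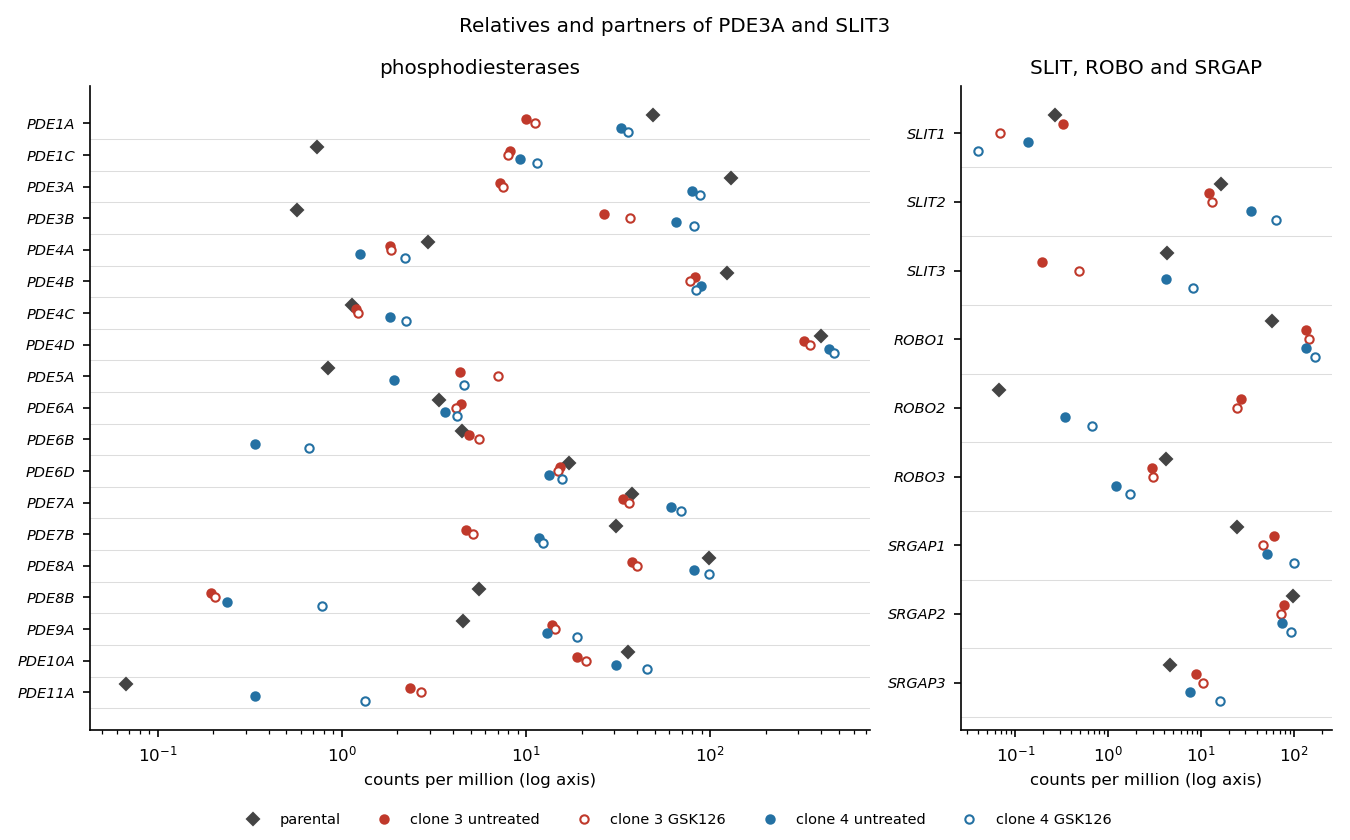
CPM on log axes of the phosphodiesterases (left) and of SLIT ligands, ROBO receptors and SRGAP effectors (right) that reached 10 counts in a library, with 1 row per gene, a diamond for parental cells, filled circles for untreated and open circles for GSK126-treated cells of clone 3 (red) and clone 4 (blue). PDE3A has its red points at 7.25 and 7.54 and its blue points at 79.1 and 88.3, PDE3B has all resistant points above the parental 0.57, and ROBO2 has its red points at 26.6 and 24.1 and its blue points below 1.

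In the kinin system, carboxypeptidase M (a membrane peptidase that trims kinins, with the gene symbol CPM, which is also the unit) had a level of 105 in that unit in parental cells, 26.6 and 27.3 in clone 3 and 47.2 and 73.4 in clone 4. It was the 1 of 4 tested genes that was lower in clone 3 (log2 difference -1.11, SE 0.21, adjusted p 5.4e-06), and 3 were not called. The B1 receptor gene BDKRB1 was near the limit of detection, with 14 counts in the parental library and between 2 and 4 in each resistant library. Among the phosphoinositide phosphatases related to INPP5D, 0 of 12 tested genes were called between the clones, beside 3.31% and 6.52% of all genes. The ubiquitous relative INPPL1, which encodes SHIP2, had 27.7 CPM in parental cells and 28.4 to 44.2 CPM in the resistant libraries (log2 difference 0.36, SE 0.22, adjusted p 0.4028). FILIP1, the paralog of FILIP1L, had 4 counts in parental cells, 25 and 22 in clone 3 and 5 and 16 in clone 4, and was not called (adjusted p 0.7043).

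INPP5D is a gene of blood cells, so leukocyte markers were read beside it. The 7 markers in the table summed to between 2.58 and 4.28 CPM per library, and PTPRC, which encodes the pan-leukocyte antigen CD45, had 2 to 15 counts. Endothelial markers summed to between 0.335 and 0.903 CPM, and fibroblast markers to between 16.4 and 36.5 CPM. None of the 4 leukocyte and 2 endothelial markers that were tested was called between the clones, and of 6 fibroblast markers 1 was called lower in clone 3, ACTA2 (32.6 CPM in parental cells, 15.8 and 11.9 CPM in clone 3, 22.9 and 25.1 CPM in clone 4, adjusted p 0.0240). Of 5 tested genes on the list of ovarian clear cell carcinoma markers, 2 were higher in clone 3 (NAPSA and WT1) and 0 lower. The list was not checked for the expected direction of each gene, so no cell identity is read from this count. The median log2 ratio to parental of its 3 genes expressed in parental cells was 1.27 in clone 3 and -0.31 in clone 4. PAX8, a transcription factor of Muellerian epithelium in that list, had 3031 to 4491 counts per library and was not called (adjusted p 0.6709). The part of these differences in the levels of the members was not tested.

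Of 10 wider gene lists, 1 held a member, the list of secreted signalling ligands with SLIT3. In it 15 of 56 other tested genes were higher in clone 3 than in clone 4, 4 were lower (VEGFA, SEMA3A, SEMA3B and SLIT2) and 37 were not called, beside 6.52% higher and 3.31% lower over all genes. Lists without a member had such calls too, with 17 higher and 1 lower of 44 adhesion and junction genes, and 18 higher and 4 lower of 44 matrix genes and proteases. Of 34 genes often silenced by promoter methylation 6 were higher and 7 lower, and of 17 PRC2 and DNA methylation enzymes 0 were higher and 3 lower.

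The rule did not compare treated with untreated cells, but it set the same limits for both. In clone 3 there was only an upper limit, 0.2 times parental, so a wide difference with GSK126 was possible there. In clone 4 the limits of 0.5 and 2 times parental bounded that difference. The members' values in this contrast are therefore conditioned on their choice, and nothing is read from how many were called. Across 29847 genes, 1 gene (0.00335%) was called between treated and untreated resistant cells, and 0 of 6 members were (DESeq2, all 6 adjusted p 0.9999). With the clone as replicate block, which the labels justify because each clone was profiled untreated and treated, 4 genes (0.0134%) were called and again 0 of 6 members. Without the block, the gap between the clones that chose the members enters the spread of the fit. The SE of PDE3A was 1.845 without the block and 0.205 with it, so the fit without the block could hardly call a member. At an unadjusted p under 0.05 the counts over all genes were 117 and 282, and edgeR called 0 genes without the block (232 at an unadjusted p under 0.05) and 1 with it (839 at an unadjusted p under 0.05).

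The blocked log2 difference of PDE3A with treatment was 0.03 (SE 0.21, 95% interval -0.37 to 0.43). SLIT3 had the widest difference in favour of treatment, 0.98 (SE 0.57, 95% interval -0.12 to 2.09, adjusted p 0.9999), and was higher in treated cells in 2 of 2 clones. The unadjusted p of SLIT3 was 0.0818 with DESeq2 and 0.0128 with edgeR (adjusted p 0.9419), both with the block, and its adjusted p over all fits ranged from 0.9419 to 1. BDKRB2 had a blocked log2 difference of 0.13 (SE 0.36, 95% interval -0.56 to 0.83). The intervals of C15orf62 (-2.53 to 2.14), INPP5D (-2.61 to 2.11) and FILIP1L (-3.51 to 0.87) were too wide to tell a change in either direction at this depth.

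Within each clone there was 1 library per treatment and so no test. Treated over untreated cells, the log2 ratio of BDKRB2 was -0.45 in clone 3 and 0.80 in clone 4, with counting intervals of -0.86 to -0.03 and 0.61 to 0.99. That of SLIT3 was 1.23 in clone 3 (-0.11 to 2.56) and 0.98 in clone 4 (0.66 to 1.30). The median over the 6 members was -0.20 in clone 3 and 0.19 in clone 4, beside 0.01 and 0.13 over all 11715 genes, and the former holds FILIP1L with 0 treated counts through a pseudocount of 0.5.

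**Figure D5:**
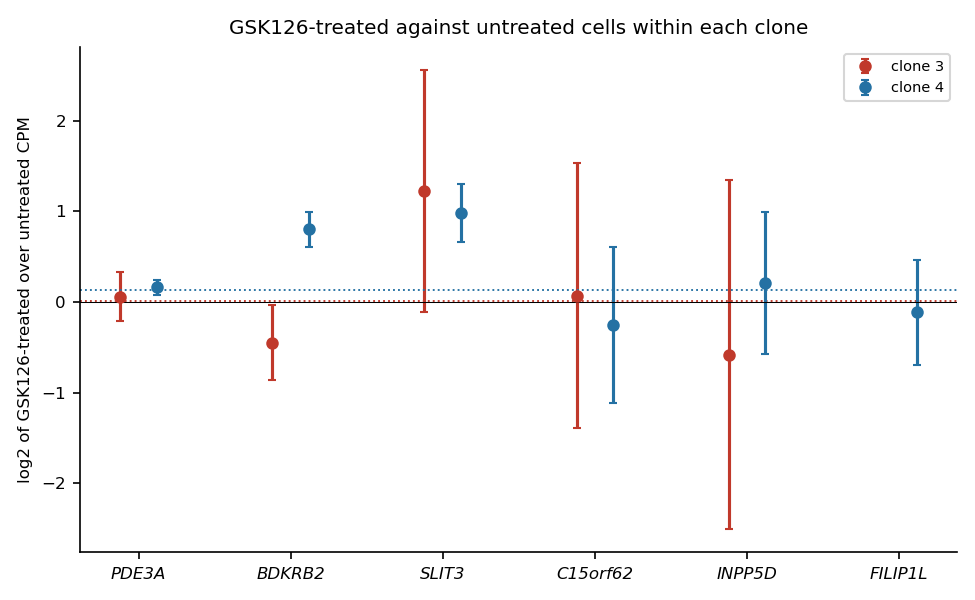
Log2 ratio of GSK126-treated over untreated CPM within clone 3 (red) and clone 4 (blue) for each member, with 95% counting intervals. Dotted lines mark the median of all genes in each clone (0.01 and 0.13). Most intervals cross 0, and BDKRB2 has its points on opposite sides of it. FILIP1L in clone 3, with 5 untreated and 0 treated counts, is not drawn.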

How the data were processed

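Total RNA of parental and EIR TOV21G cells was sequenced after a stranded TruSeq library preparation. The authors aligned reads to hg19 with bowtie2 and deposited estimated counts per Ensembl gene from RSEM (version 1.2.3 in the submitters' processing notes), rounded to whole numbers and not normalized. RSEM shares reads that fit several genes, so overlapping genes are uncertain. Groups and clone numbers came from the labels. BRG1 ChIP-seq of the series was not analysed here.

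CPM was the count over the column sum. Symbols, spans and GC content came from GENCODE release 44 on GRCh37, which matched 29203 of 30476 identifiers. The main test was the Wald test of DESeq2 1.42.0, run under R 4.3.3, two-sided, with a Benjamini-Hochberg false discovery rate of 0.05 after the study's methods. It was fitted to all genes of the 4 resistant libraries, by treatment for treated against untreated cells and by clone with treatment as covariate for clone 3 against clone 4. edgeR 4.0.16 was an alternative. Fits were tested on simulated counts. For the treatment fit these counts held no difference between the clones, so the check does not cover that source of spread. The clone number paired the treated and untreated libraries because they come from the same clone, and the deviations of paired libraries correlated at 0.864. Ratios used a pseudocount of 0.5 counts. Intervals (95%) and the floor of 3 counts cover counting error only, and p-values measure the spread between these libraries only.

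The members and lists were chosen with earlier results of these data known. The text names all members, up to 3 genes on each side of each limit, nearest expressed neighbours, overlapping genes and relatives that passed a test. Other relatives (PDE4B, PDE4D, ROBO1, INPPL1, FILIP1, BDKRB1), SLFN12, marker genes and example genes near the members were chosen after their values were seen. Promoters were taken at canonical starts, since the RefSeq table has other starts for PDE3A and FILIP1L. A few items that these rules select are not reported here.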

Additional observations from a re-analysis of the deposited data

Results flagged for a closer look

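Of the 6 members, 3 had treated over untreated log2 ratios of opposite sign in the clones. BDKRB2 had -0.45 in clone 3 (112 and 78 counts) and 0.80 in clone 4 (363 and 546 counts). C15orf62 had 0.07 in clone 3 and -0.25 in clone 4, and INPP5D had -0.58 and 0.21. For C15orf62 and INPP5D the counting intervals of both clones include 0, and for BDKRB2 neither does. The difference between the clones was not tested, because there is 1 library per clone and treatment.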

How the results depend on the processing

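The number of members depends on the limits. Other scalings (TMM or DESeq2 size factors) gave 7 genes, adding SCARA5. A parental minimum of 5 CPM left 2 (PDE3A and BDKRB2), a clone 3 limit of 0.1 left 1 (PDE3A), a clone 4 window of 0.67 to 1.5 left 1 (INPP5D), and GC bin centring gave 5 genes, of which 2 were members. With prefixes kept or a minimum of 0.5 CPM there were 6. Without 1 library at a time there were 8 to 16 genes, with 16 without the untreated clone 4 library (for example CPS1), 11 without the treated clone 3 library, 9 without the untreated clone 3 library and 8 without the treated clone 4 library. Chosen after seeing the data, a clone 3 limit of 0.25 gave 11 genes, and dropping the upper clone 4 limit gave 7.

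With the clone as replicate block 4 genes were called between treated and untreated cells, against 1 without it, 0 with edgeR, and 1 to 25 without 1 library (25 without the untreated clone 3 library). The block changed no call of a member. Leaving out a library leaves clone and treatment partly confounded by construction, and the log2 difference of treated against untreated cells then ranged from -2.56 to 2.63 for PDE3A, -1.62 to 1.64 for BDKRB2, -2.24 to 4.39 for SLIT3, -1.21 to 0.98 for C15orf62, -2.39 to 1.69 for INPP5D and -7.36 to 2.27 for FILIP1L, none of them called. Between the clones 1739 genes were called, and 831 to 2800 without 1 library and without the treatment covariate (831 and 876 without the treated or untreated clone 3 library, 2800 without the untreated clone 4 library). Of the 14 relatives called between the clones, 10 kept their call under all 8 alternatives. The median log2 ratio of the neighbours was -0.02 for the 9 within 200 kb, and the share of CpG-rich promoters was 0% at a limit of 0.75 and 16.7% where 50% GC was also asked. Of 205 alternative values 169 kept their direction and their side of the threshold or stayed close to the reported value. This tally holds 8 alternatives for each of the 14 relatives, and for the members it compares their number and not their names. The 5 genes under GC bin centring thus count as close, although 4 members left and 3 other genes entered. Depth limits C15orf62, INPP5D and FILIP1L, with 33 to 37 parental counts.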
